A study of Mus musculus with 8 samples.

Results

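Untreated bone marrow-derived macrophages of Slc6a8-/y genotype (knockout, KO) were compared with untreated wild-type (WT) ones. The comparison holds 2 of the 8 libraries of the series, 1 per genotype, chosen by their genotype and treatment labels. Both strains were on the C57BL/6 background, and marrow cells of both genotypes were grown for 5 days with 10% M-CSF, the growth factor that turns marrow precursors into macrophages. Slc6a8 lies on the X chromosome, so that a male carries 1 copy, and the labels name no promoter, Cre or cell type to which the loss would be limited. KO and WT cells treated with IL-4 at 10 ng/mL for 6 hours, and untreated thioglycollate-elicited peritoneal macrophages of both genotypes, are given beside the untreated pair where they show the same genes in other libraries. The labels give neither the number of animals behind a library, nor their age, nor whether the untreated and IL-4 cultures of a genotype came from the same animals.

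Creatine is a small nitrogen compound that cells phosphorylate with creatine kinases to hold an energy reserve that can quickly regenerate ATP. It is made by Gatm and Gamt or taken up through Slc6a8, a sodium- and chloride-dependent transporter of the plasma membrane. Macrophages grown from marrow with M-CSF are a widely used model of resting macrophages, and IL-4 drives them to the alternative state marked by genes such as Arg1 and Mrc1. The series was designed to examine transcriptomes of macrophages without creatine during such polarization, and the untreated pair is its resting baseline.

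Expression is given as FPKM, fragments scaled to transcript length and library total. A KO level was set against a WT level as the log2 ratio of FPKM + 1, over the 8164 genes with at least 5 FPKM in either library and without microRNA and small nucleolar RNA genes. This scale understates the difference of a gene with few FPKM. With 1 library a side the sizes carry no test and no replicate error. The total expected count was 21148299 in the WT and 21163660 in the KO library, and a gene near 5 FPKM rested on a median of 317 counts in WT and 331 in KO. Just inside the limit lay Yeats2 at 5 FPKM in WT and 4.85 in KO, and Mrm1 at 4.15 and 5. Just outside lay Eml4 at 4.99 and 4.35, and Snapc1 at 4.99 and 4.5.

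A test was possible only over the 4 bone marrow-derived libraries together, as the genotype term of an edgeR quasi-likelihood fit with IL-4 as a covariate, 2 KO against 2 WT libraries. It speaks of both treatments at once and not of the untreated pair alone. In what follows, a gene rose or fell in KO where this term had a Benjamini-Hochberg adjusted p under 0.05, and it was higher or lower in the untreated pair where only the size is meant. Of 12879 genes tested, 195 rose (1.51%) and 474 fell (3.68%). The fit had 1 residual degree of freedom. With 1 library per genotype and treatment, that residual is the difference of the KO effect between untreated and IL-4 cells. It may be technical, and it holds no spread between replicates. A gene whose KO effect differs with IL-4 is thus less readily called. In simulated data the test made more false calls than its threshold allows, so that the adjusted p-values may be too small.

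The resting transcriptomes of the 2 genotypes were close. Of the 8164 genes, 93.2% lay within 1.2-fold, and the median log2 ratio was 0.003. The 5th and 95th percentiles were −0.235 and 0.207. At least 2-fold lower in KO were 8 genes (0.098%), and at least 2-fold higher were 3 (0.0367%). At 1.5-fold, 76 genes were lower (0.931%) and 15 were higher (0.184%). Apart from Slc6a8 itself, the lower genes included 12 collagen chains and other genes of the extracellular matrix, while macrophage identity genes such as Csf1r, Cd68 and Lyz2 were at like levels.

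**Figure D1:**
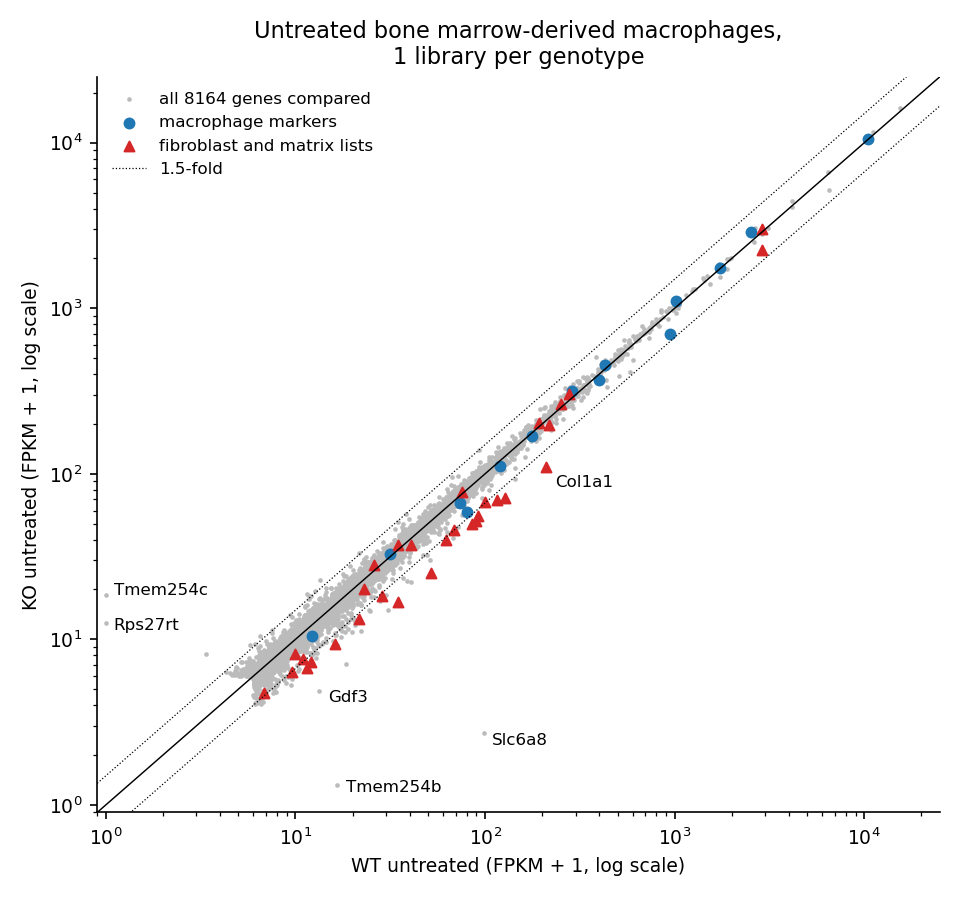
Level of each of the 8164 genes in the WT library (x axis) and the KO library (y axis), untreated bone marrow-derived macrophages, as FPKM + 1 on log scales. Blue circles are the 14 macrophage markers, red triangles the members of the fibroblast and matrix lists, the solid line marks equal levels and the dotted lines 1.5-fold. Slc6a8, Tmem254b and Gdf3 lie far below the line, and many red triangles lie along or below the lower dotted line.

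Slc6a8 had 97.34 FPKM in the untreated WT library and 1.71 FPKM in the KO library. With IL-4 it had 87.92 FPKM in WT and 1.15 in KO, and in untreated peritoneal macrophages 163.54 and 0.73. All 3 KO libraries were thus far below their WT partner, as the genotype labels say. In the untreated pair the expected count was 8246 in WT and 145 in KO, a KO to WT ratio of 0.0176 with an exact 95% counting interval of 0.0148 to 0.0207. Such intervals cover counting error only and no spread between libraries. PCR copies of a fragment do not count separate molecules, so that the intervals may be too narrow even for counting error. Slc6a8 fell in KO by 6.02 on the log2 scale (SE 0.09, edgeR adjusted p = 6.4e-10).

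The other genes that handle creatine were not called. Gatm, which makes guanidinoacetate, had 32.6 FPKM in WT and 36.97 in KO, with an edgeR log2 difference of 0.18 (SE 0.05, adjusted p = 0.0593). Gamt, which methylates guanidinoacetate to creatine, had 15.57 FPKM in WT and 17.82 in KO. Ckb, the brain-type cytosolic creatine kinase, had 231.3 FPKM in WT and 257.85 in KO. All 3 were thus slightly higher in KO, by 0.16 to 0.18 on the log2 scale, and none passed the test. Ckm, Slc16a12 and Slc16a9 stayed at or under 0.14 FPKM in both libraries, and of the 9 genes on the creatine list 7 were matched by symbol.

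Of the 12 genes on the list of SLC6 and osmolyte transporters, 5 were compared in the untreated pair. All 5 lay within 1.5-fold, as did nearly all genes compared. Slc6a6, the taurine transporter, had 274.02 FPKM in WT and 273.81 in KO. Slc6a12, the betaine and GABA transporter, had 5.47 FPKM in WT and 6.7 in KO, and it rose with an edgeR log2 difference of 0.43 (SE 0.10, adjusted p = 0.0368). DESeq2 and limma called 0 genes of this list. Slc6a12 had 6.06 FPKM in WT and 8.95 in KO with IL-4, and 7.63 and 31.64 in the untreated peritoneal pair. Slc6a9, a glycine transporter, fell from a low level, with 1.84 FPKM in WT and 0.99 in KO.

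The X chromosome genes near Slc6a8 were looked at as well. Of 24 compared, Slc6a8 was lower and L1cam higher by at least 1.5-fold. L1cam, a cell adhesion molecule at X:73853778-73880838 (GRCm38.p6, with Slc6a8 at X:73673133-73682502), had 11.04 FPKM in WT and 17.35 in KO without cytokine, and 11.99 and 17.33 with IL-4. It rose by 0.59 on the log2 scale (SE 0.06, edgeR adjusted p = 0.000327). The other 22 neighbours lay within 1.5-fold, as did nearly all genes compared. Among them was G6pdx with 93.24 FPKM in WT and 103.62 in KO.

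Several of the most extreme genes are members of sets with the same coding sequence. Tmem254b had 15.54 FPKM in WT and 0.32 in KO, and Tmem254c had 0 in WT and 17.5 in KO. These and Tmem254a, at 0.2 and 0.07 FPKM, lie on the minus strand of chromosome 14 (GRCm38, 14:25923300-25927672, 14:26203369-26207041 and 14:26063919-26067355 for a, b and c). Their coding sequences of 369 bases differ at 0 positions, so that each copy's own level is uncertain, and the first 240 bases are shown to make the identity plain.
Tmem254a, Tmem254b and Tmem254c, coding sequence from the start codon: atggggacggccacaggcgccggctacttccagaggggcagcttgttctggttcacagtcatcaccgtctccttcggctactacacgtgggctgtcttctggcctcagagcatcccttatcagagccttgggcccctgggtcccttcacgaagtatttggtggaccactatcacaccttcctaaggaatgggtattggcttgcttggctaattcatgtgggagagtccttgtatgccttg
The sum over the 3 copies was 15.74 FPKM in WT and 17.89 in KO without cytokine, and 14.89 and 15.84 with IL-4. In both of these pairs the KO fragments were assigned mostly to copy c and the WT fragments mostly to copy b. In the untreated peritoneal pair copy b held nearly all in both genotypes, with Tmem254b at 17.13 FPKM in WT and 14.05 in KO and Tmem254c at 0.01 and 0.09. How the counting divided fragments among the copies was not tested. Rps27rt, a retrocopy of the ribosomal protein gene Rps27 with 0 of 252 coding bases differing, was listed at 0 FPKM in WT and 11.62 in KO, and at 0 in both IL-4 libraries and both peritoneal ones. Rps27 itself had 629.48 FPKM in WT and 682.16 in KO. The 3 genes that were at least 2-fold higher in KO are Tmem254c, Rps27rt and the pseudogene Atp6v0c-ps2, which had 2.38 FPKM in WT and 7.15 in KO.

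Genes of the extracellular matrix made up a large share of the lower genes. Fibrillar collagens are secreted as triple helices, cross-linked by lysyl oxidases and degraded by matrix metalloproteinases under the control of Timp inhibitors. Mesenchymal cells make most of them, and macrophages are known to make some. Among the 50 lower genes for which the deposited tables give a cellular component, 17 (34%) are annotated to the extracellular matrix, against 53 of 5748 such genes (0.922%) over all genes compared. All 76 lower genes are protein-coding.

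Of 42 collagen chains with a value, 13 reached 5 FPKM, and all 13 were below 0 in log2 ratio, as were 48.9% of all genes compared. Of the 13, 12 reached 5 FPKM in both libraries, and Col5a3 in WT alone. The 29 chains under 5 FPKM are not covered by that count. At least 1.5-fold lower were 12 of the 13, against 0.931% of all genes compared. By edgeR 15 of 28 chains tested fell and 0 rose, where 3.68% of all genes tested fell. The summed collagen level was 572.2 FPKM in WT and 314.5 in KO. Collagens and lysyl oxidases were taken as families after their values were seen.

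Col1a1 and Col1a2, the chains of type I collagen, were the most abundant. Col1a1 had 208.73 FPKM in WT and 109.59 in KO, a ratio of 0.525 (counting interval 0.514 to 0.536). With IL-4 it had 198.89 FPKM in WT and 93.66 in KO, so that both KO libraries lay below both WT libraries. It fell by 1.01 on the log2 scale (SE 0.05, edgeR adjusted p = 1.07e-05). Col1a2 had 127.12 FPKM in WT and 70.14 in KO untreated, and 119.97 and 61.69 with IL-4. It fell by 0.91 (SE 0.05, edgeR adjusted p = 1.21e-05). Both chains of the same trimer were thus lower by like amounts. Col3a1, the type III chain found beside type I in soft tissue, had 33.65 FPKM in WT and 15.92 in KO.

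The chains of type VI collagen, which forms beaded filaments around cells, moved together. Col6a1 had 33.27 FPKM in WT and 15.05 in KO, Col6a2 had 29.61 and 14.05, and Col6a3 had 15.6 and 8.3. Col6a1, at −1.09, had the lowest log2 ratio of all collagens compared. The basement membrane chains Col4a1 (15.24 FPKM in WT, 8.36 in KO) and Col4a2 (11.01 and 6.26) were lower as well. These 2 genes lie on opposite strands of chromosome 8 with start sites 21 bases apart (GRCm38.p6). The type V and XII chains ranged from −0.69 for Col5a3 to −0.78 for Col12a1. Col18a1, another basement membrane chain, had 28.33 FPKM in WT and 25.04 in KO, was not called, and was the 1 compared chain within 1.5-fold.

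The sequences before the start sites of Col1a2 and Col3a1 are shown because these genes were lower together. RefSeq (GRCm38.p6) gave an entry for 9 of the 12 collagen genes. The search was for CCAAT, the box bound by NF-Y that is long known from type I collagen promoters, on both strands (CCAAT or ATTGG) in the 250 bases before a start, with capitals marking a match.
Col1a2, chr6:4505368-4505617, plus strand: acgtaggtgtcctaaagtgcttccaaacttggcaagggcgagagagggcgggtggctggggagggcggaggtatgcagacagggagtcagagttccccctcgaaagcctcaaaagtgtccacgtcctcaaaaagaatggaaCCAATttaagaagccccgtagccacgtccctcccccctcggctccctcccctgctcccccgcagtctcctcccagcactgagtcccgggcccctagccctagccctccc
Col3a1, chr1:45311288-45311537, plus strand: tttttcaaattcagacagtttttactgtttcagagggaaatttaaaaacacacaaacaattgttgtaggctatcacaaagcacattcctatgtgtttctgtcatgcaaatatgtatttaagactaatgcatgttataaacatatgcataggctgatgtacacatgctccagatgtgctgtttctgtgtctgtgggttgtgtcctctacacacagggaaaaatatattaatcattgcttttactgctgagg
Col1a2 has a match that begins 109 bases before its start, and Col3a1 has none in this window. A match was present in 4 of the 9 collagen genes, against 37.5% of the 27025 genes with an entry.

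Enzymes and inhibitors that act on collagen were lower too. Lox, which cross-links collagen and elastin, had 50.11 FPKM in WT and 29.34 in KO. Loxl2, a related enzyme, had 19.7 and 11.17. Of 5 lysyl oxidases tested, 4 fell, against 3.68% of all genes tested. Timp3, the matrix-bound metalloproteinase inhibitor, had 50.93 FPKM in WT and 24 in KO untreated, and 40.84 and 19.46 with IL-4. Its untreated ratio was 0.471 (counting interval 0.449 to 0.495), and it fell by 1.08 on the log2 scale (SE 0.05, edgeR adjusted p = 7.73e-06). Timp1 had 84.31 FPKM in WT and 48.63 in KO, while Timp2, at 217.47 and 197.35, was not called. The inhibitors thus did not move by like amounts.

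Over the list of matrix and repair genes, 26 of 30 members were compared, with a median log2 ratio of −0.54 against 0.003 over all genes. Of these, 12 were at least 1.5-fold lower and 0 higher, against 0.931% and 0.184% of all genes compared. In the edgeR fit 13 of 30 fell and 0 rose, where 3.68% of all genes tested fell. Fn1, which encodes fibronectin, had 88.76 FPKM in WT and 50.8 in KO and fell by 0.88 (SE 0.05, edgeR adjusted p = 1.73e-05). Sparc, a collagen-binding glycoprotein, had 91.08 and 54.96. Mmp14, the membrane-anchored metalloproteinase, had 20.55 FPKM in WT and 12.21 in KO. Several other members were not called. Gpnmb had 2880.16 FPKM in WT and 3010.86 in KO, Mmp12 had 39.8 and 36.25, Tgfb1 had 249.76 and 262.37, and Igf1 had 74.37 and 76.27. Spp1, which encodes osteopontin, had 2882.55 FPKM in WT and 2240.28 in KO and missed the threshold (edgeR adjusted p = 0.0675).

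**Figure D2:**
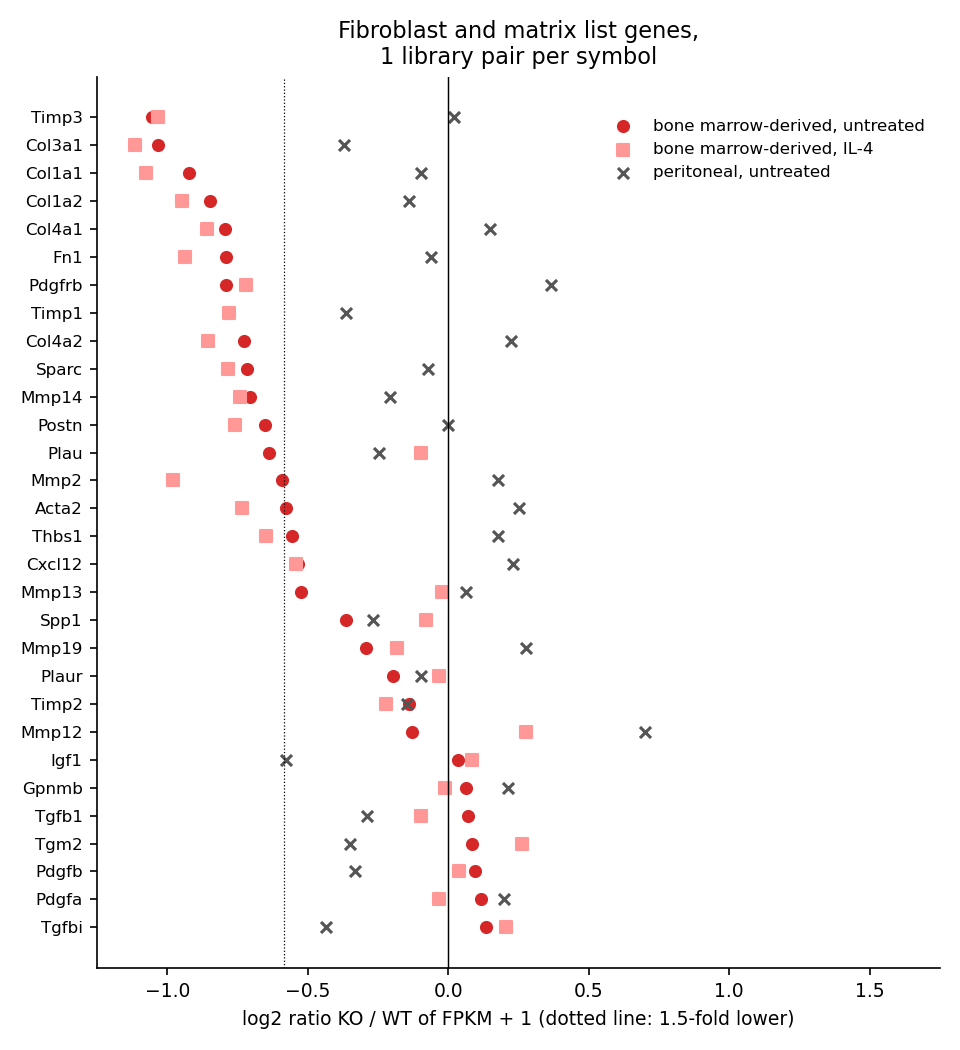
Log2 ratio of KO to WT (x axis, FPKM + 1) for compared genes of the fibroblast and matrix lists, with 1 symbol per pair of libraries: untreated bone marrow-derived (circles), IL-4-treated bone marrow-derived (squares) and untreated peritoneal (crosses). Circles and squares of the collagens, Timp3 and Fn1 lie left of the dotted 1.5-fold line, while the crosses scatter around 0. Some crosses are of genes under 5 FPKM in peritoneal cells.

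Markers of fibroblasts and stromal cells moved with the matrix genes. Of 12 listed, 7 were compared, with a median of −0.79. All 7 were below 0, as were 48.9% of all genes compared. Among the 7 markers, Col1a1, Col1a2 and Col3a1 are the collagens above. Pdgfrb, the receptor of pericytes and fibroblasts for platelet-derived growth factor, had 10.55 FPKM in WT and 5.67 in KO. Postn, which encodes periostin, had 27.51 and 17.15, Acta2, smooth muscle actin, had 67.65 and 45.03, and the stromal chemokine Cxcl12 had 10.01 and 6.6. Of 10 markers tested by edgeR, 8 fell and 0 rose, where 3.68% of all genes tested fell. The summed level of the list was 492 FPKM in WT and 275.1 in KO untreated, and 461.4 and 235.8 with IL-4. Some defining markers were near 0 in both untreated libraries, with Lum at 0.14 and 0.05 FPKM, Lepr at 0.17 and 0.12 and Adipoq at 0 in both, while Dcn had 4.68 and 3.66 and Pdgfra 1.77 and 1.16. The part of a stromal cell share in the matrix values was not tested. In RNA from a whole culture, fewer cells of a type and less RNA per cell cannot be told apart.

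The lower genes as a whole were lower with IL-4 as well. All 76 genes at least 1.5-fold lower without cytokine, Slc6a8 itself among them, were below 0 in the IL-4 pair. Over all genes compared 44.9% were below 0 there, and the 2 pairs share no library. Of the 76, 60 were at least 1.5-fold lower with IL-4 too. That is 60 of the 92 genes (1.13% of those compared) lower by that size with IL-4. The median log2 ratio of the 76 was −0.71 untreated and −0.73 with IL-4, and 73 of them fell in the edgeR fit, which includes the untreated pair. In the untreated peritoneal pair 37 of the 76 reached 5 FPKM, and 2 were at least 1.5-fold lower, against 0.93% of the 7202 genes compared there. These 2 were Slc6a8 itself and Clec4a1. The median of the 37 was −0.06. The matrix and repair list itself had a median of −0.54 untreated, −0.20 with IL-4 and −0.085 in the peritoneal pair, with 12 members at least 1.5-fold lower in each bone marrow-derived pair. The fibroblast list had medians of −0.79, −0.76 and 0. Both peritoneal medians include members under 5 FPKM in those cells, for which the scale understates a difference. Pdgfrb, for example, had 0.71 FPKM in peritoneal WT and 1.2 in KO. Col1a1 had 32.91 FPKM in peritoneal WT and 30.66 in KO, and Col1a2 had 40.9 and 37.06. Whether the genotype effect differs between the cell types was not tested.

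Markers of the macrophage showed the labelled cell type in both libraries. All 14 markers were compared and all lay within 1.5-fold, as did nearly all genes compared (0.931% were lower and 0.184% higher by that size). Their median log2 ratio was −0.03, and their summed levels were 18320 FPKM in WT and 18580 in KO. Csf1r, the M-CSF receptor, had 1019.32 FPKM in WT and 1109.33 in KO. Cd68 had 1732.5 and 1744.57, Lyz2 had 10496.3 and 10554.1, and Adgre1, which encodes F4/80, had 399.44 and 367.59. Of the 14, 2 fell and 0 rose. C1qa, a chain of complement C1q, had 944.56 FPKM in WT and 702.85 in KO, and Msr1, the class A scavenger receptor, had 79.23 and 57.49.

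Markers of other blood cells were summed as well. The list of 9 monocyte markers had 579.2 FPKM in WT and 676 in KO untreated, and 620.7 and 792.9 with IL-4. S100a4, a calcium-binding protein also made by macrophages, made up 539.99 and 640.66 of the untreated sums and rose, while F13a1 (5.53 and 3.25) and Vcan (2.37 and 1.58) fell. Osteoclast markers summed to 87.16 FPKM in WT and 81.18 in KO, and T and NK cell markers to 21.06 and 22.77. The summed level was 53.6 FPKM in WT and 59.4 in KO for 13 matched neutrophil markers, of which Csf3r made up 45.11 and 46.75. It was 3.11 and 2.76 for the eosinophil, basophil and mast cell list, 1.03 and 1.72 for dendritic cells, and 1.95 and 1.47 for B cells. For the erythroid and megakaryocyte list it was 25.33 FPKM in WT and 17.06 in KO, of which Pf4 made up 21.23 and 15.1, and Itga2b fell from 0.85 to 0.19 FPKM. Of 8 X- and Y-linked sex markers compared, edgeR called 0, with 0 at an unadjusted p under 0.05.

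Gdf3 and Ccl8, which encode secreted signals, were among the lowest genes. Gdf3, a ligand of the TGF-beta family, had 12.29 FPKM in WT and 3.9 in KO untreated, and 11.86 and 3.64 with IL-4. Its untreated ratio was 0.317 (counting interval 0.267 to 0.378), and it fell by 1.68 on the log2 scale (SE 0.10, edgeR adjusted p = 1.73e-05). Both KO libraries were thus far below both WT libraries, which lay close to each other. In peritoneal macrophages Gdf3 had 6.78 FPKM in WT and 5.33 in KO. Ccl8, a chemokine that attracts monocytes, had 17.43 FPKM in WT and 6.09 in KO untreated, and 13.05 and 6.85 with IL-4. It rested on 180 and 63 counts in the untreated libraries. Clec4a1, a C-type lectin of myeloid cells, had 39.81 FPKM in WT and 21.33 in KO, and it was lower in the peritoneal pair too, with 6.14 and 2.95. Mgp, an inhibitor of calcification, had 21.11 and 10.22, and Ccn5, a matricellular protein, had 8.47 and 4.31.

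Genes of the complement system were slightly lower in the untreated bone marrow-derived pair. Of 14 compared, 13 were below 0, as were 48.9% of all genes compared, and the median was −0.23. By edgeR 9 of 19 fell and 0 rose, where 3.68% of all genes tested fell. Serping1, the inhibitor of C1, had 18.84 FPKM in WT and 10.12 in KO and was the 1 member at least 1.5-fold lower. C1qa and C1qc fell, while C1qb, with 1881.41 FPKM in WT and 1720.51 in KO, missed the threshold (edgeR adjusted p = 0.0527). C3, the central component, had 38.54 and 28.46, and C5ar1, the receptor for C5a, had 220.89 and 183.94. Both fell. In the untreated peritoneal pair C1qa had 68.26 FPKM in WT and 29.07 in KO, C1qb 273.31 and 104.44, and C1qc 206.62 and 77.53. The median of the whole list there was −0.12.

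Some genes on the list of IL-4 and alternative activation were lower in KO at rest. Of 30 on that list, 11 were compared, with a median of −0.33. Of the 11, 10 were below 0, as were 48.9% of all genes compared. The median rests on the limit of 5 FPKM, since it was −0.027 with no filter on low values. Of 27 tested by edgeR, 8 fell and 2 rose, against 3.68% and 1.51% of all genes tested. Tfrc, the transferrin receptor for iron uptake, had 16.56 FPKM in WT and 10.2 in KO untreated, and 63.25 and 41.1 with IL-4. It fell by 0.66 (SE 0.05, edgeR adjusted p = 8.36e-05). Mrc1, the mannose receptor, had 28.07 FPKM in WT and 22.19 in KO untreated, and 266.33 and 214.94 with IL-4. Arg1, the arginase that marks the alternative state, had 1.28 FPKM in WT and 0.42 in KO untreated and so was not compared there, and 139.89 and 76.97 with IL-4. Without cytokine Retnla was listed at 0 in either genotype, so that its call rests on the IL-4 pair. Il1rn, the IL-1 receptor antagonist, Egr2, Myc and Fn1 also fell, and Klf4 and Flt1 rose. Not all of these were higher with IL-4 in WT. There Fn1 had 88.76 FPKM untreated and 81.73 with IL-4, and Il1rn had 11.98 and 10.84. Fn1 is on the matrix and repair list too.

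Sterol synthesis genes were lower by small amounts. SREBF2 drives these genes when cell cholesterol is low. Of 22 compared, 21 were below 0 in the untreated pair and 21 in the IL-4 pair. Over all genes compared, 48.9% were below 0 untreated and 44.9% with IL-4. The list medians were −0.22 and −0.16, and 0 genes of the list were at least 1.5-fold lower. In the edgeR fit 8 of 24 fell and 0 rose, where 3.68% of all genes tested fell. Sqle, which makes squalene epoxide, had 25.22 FPKM in WT and 18.7 in KO and fell by 0.43 (SE 0.05, edgeR adjusted p = 0.00187). In the untreated peritoneal pair the list's median was −0.30. Of the fatty acid and lipid list, 6 of 29 fell, among them the desaturase Scd2 (17.93 FPKM in WT, 11.68 in KO), Fasn (15.73 and 13.81) and the cholesterol exporter Abca1 (18.76 and 14.54), and 0 rose.

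Genes of cell division were slightly lower in the untreated pair. Of 30 compared, 26 were below 0, as were 48.9% of all genes compared. The list's median was −0.16, against −0.03 in the IL-4 pair. Of 35 tested by edgeR, 4 fell, namely Mcm5, Mcm7, Rrm2 and Ccnd2. Over all genes tested 3.68% fell, and DESeq2 called 0 genes of this list. Mcm7, a subunit of the replicative helicase, had 21.27 FPKM in WT and 15.23 in KO, and Rrm2, a subunit of ribonucleotide reductase, had 25.06 and 17.07. The mitotic genes Mki67 (52.05 and 46.4), Plk1 (33.01 and 33) and Ccnb2 (36.89 and 40.62) were not called.

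Some amino acid genes were called. Of 25 targets of ATF4, the transcription factor of amino acid stress, 4 of 23 tested fell and 0 rose. Over all genes tested 3.68% fell. The median over the 17 compared was −0.16, with 13 of them below 0, as were 48.9% of all genes compared. Psat1, which makes phosphoserine, had 11.22 FPKM in WT and 7.06 in KO. Atf4 itself had 76.83 and 69.34 and was not called. On the list for arginine, polyamines and proline, Ass1, which makes argininosuccinate, rose, with 10.68 FPKM in WT and 13 in KO. Srm, the spermidine synthase, fell, with 19.02 and 15.47.

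Energy metabolism genes lay close to equal. All 34 oxidative phosphorylation genes lay within 1.5-fold, as did nearly all genes compared, with a median of 0.06. With edgeR 0 of 34 were called, and 1 was higher at an unadjusted p under 0.05. Of 19 glycolysis genes, 1 rose and 1 fell, with a median of 0.03, and of 23 genes of the tricarboxylic acid cycle likewise 1 rose and 1 fell. Of 36 cytosolic ribosomal protein genes edgeR called 0, and 1 was lower at an unadjusted p under 0.05, with a median of 0.03.

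**Figure D3:**
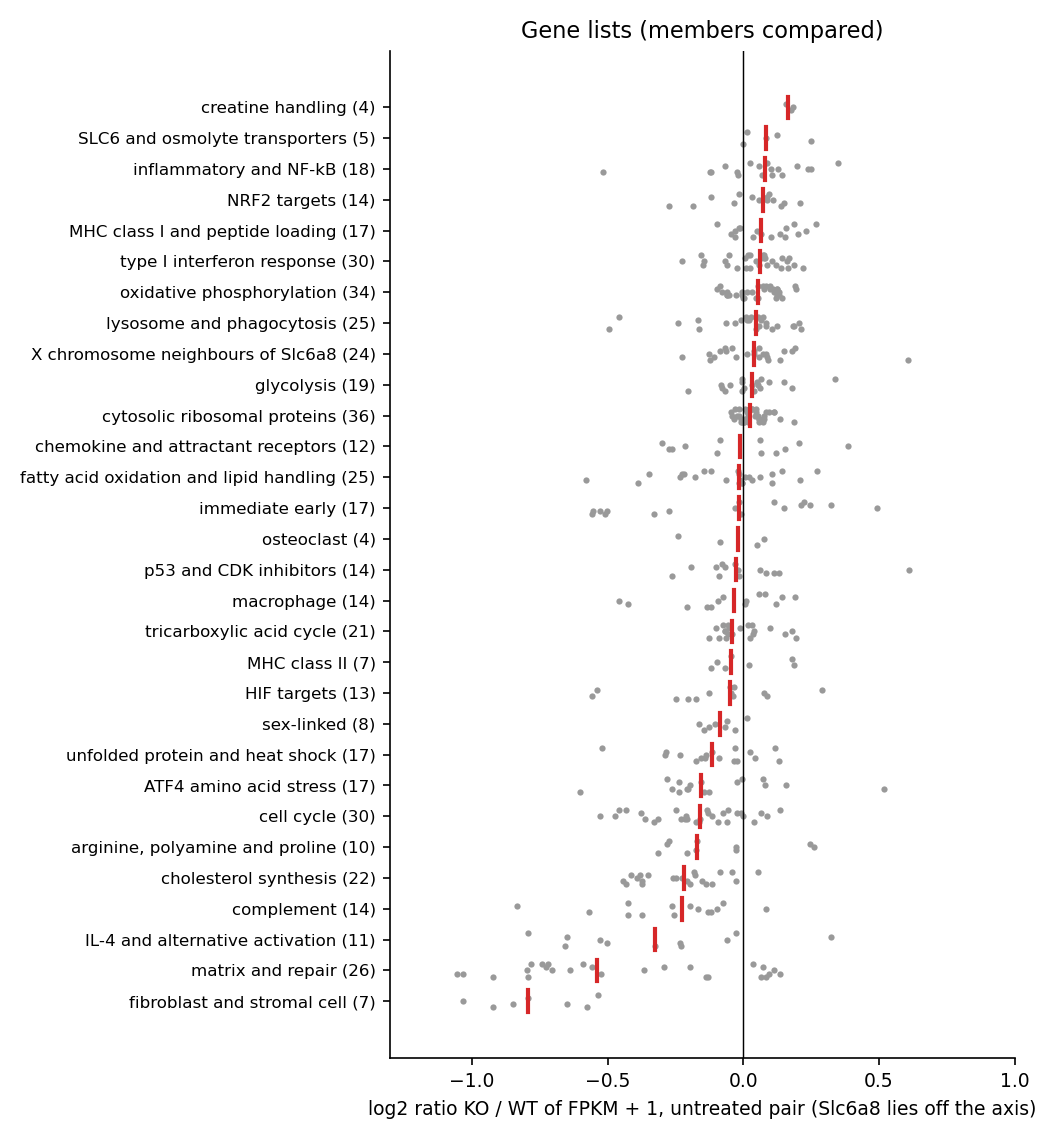
Log2 ratio of KO to WT in the untreated pair (x axis, FPKM + 1) for the compared members of each gene list (grey points), with the list's median as a red bar and the number of members in parentheses. The fibroblast and matrix lists have medians of −0.79 and −0.54, and oxidative phosphorylation and ribosomal protein genes lie close around 0.

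The genes higher in KO formed no large group. Of the 15, 14 were above 0 in the IL-4 pair as well, as were 54.7% of all genes compared. Of the 15, 9 were at least 1.5-fold higher there (of 73 such genes, 0.894%, of which 19, or 0.233%, were 2-fold higher), and 13 rose in the edgeR fit, which includes the untreated pair that chose them. Ide, the insulin-degrading enzyme, had 12.52 FPKM in WT and 21.82 in KO untreated, and 12.12 and 21.92 with IL-4. Its untreated ratio was 1.74 (counting interval 1.63 to 1.86), and it rose by 0.83 on the log2 scale (SE 0.05, edgeR adjusted p = 2.52e-05). The levels within a genotype were thus nearly the same with and without IL-4. In peritoneal macrophages Ide had 18.11 FPKM in WT and 14.9 in KO. Lsp1, an actin-binding protein of leukocytes, had 91.83 FPKM in WT and 138.79 in KO untreated, and 69.14 and 103.53 with IL-4. It was the most abundant of the 15 genes in KO.

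Other higher genes have varied roles. Vwf and Mgst3, at log2 ratios of 0.572 and 0.581, lay just under the 1.5-fold limit and are not among the 15. Mcoln3, a cation channel of endosomes and lysosomes, had 10.5 FPKM in WT and 17.89 in KO, and Slc2a6, a sugar transporter, had 20.56 and 32.12. Cdkn1c, an inhibitor of cyclin-dependent kinases, had 5.13 and 8.35, and the junctional adhesion molecule F11r had 6.53 and 10.44. Vwf, which encodes von Willebrand factor, had 10.79 FPKM in WT and 16.53 in KO, and was higher in the peritoneal pair too, with 8.16 and 13.07. Mgst3, a microsomal glutathione transferase, had 37.47 and 56.54, the adaptor Grap 4.77 and 8.18, and Mamdc2 5.47 and 9.46. All of these rose. Ang, a secreted ribonuclease, had 10.79 FPKM in WT and 17.24 in KO but missed the threshold (edgeR adjusted p = 0.0573).

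The proteases and antigen processing genes differed by small amounts. Of 25 genes of the lysosome and phagocytosis list tested, 3 rose and 4 fell, against 1.51% and 3.68% of all genes tested. Ctss, the cathepsin that trims the invariant chain of MHC class II, had 2666.05 FPKM in WT and 3032.14 in KO and rose. Ctsl, a related protease, had 583.09 and 413.44 and fell. Of 17 genes of MHC class I and peptide loading, 4 rose, namely Tap2, Psmb8, Psmb10 and Psme2, and 0 fell. H2-K1 (795.4 and 815.53) was not called. Of 18 inflammatory genes compared 0 were 1.5-fold higher or lower, against 0.184% and 0.931% of all genes compared. Icam1, Tlr2 and Tnfaip2 rose. DESeq2 called 0 genes of the MHC class I and inflammatory lists.

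The type I interferon genes marked where the resting pair and the IL-4 pair parted. Of 30 compared, 0 were at least 1.5-fold higher in KO untreated and 25 were with IL-4, with medians of 0.06 and 0.86. Ifit3 had 22.43 FPKM in WT and 20.22 in KO untreated, and 5.79 and 18.72 with IL-4. Isg15 had 17.37 and 18.41 untreated, and 10.31 and 31.71 with IL-4. The KO levels thus lay near the untreated ones or above, and the WT level with IL-4 was the lowest for both genes. In the edgeR fit Oas1a, Oas1g and Ly6e rose and 0 fell, while 27 of 36 were higher at an unadjusted p under 0.05. That fit takes the difference between the pairs as its residual. Few calls here thus do not mean a small difference with IL-4. With 1 library per group the difference between the pairs was not tested.

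**Figure D4:**
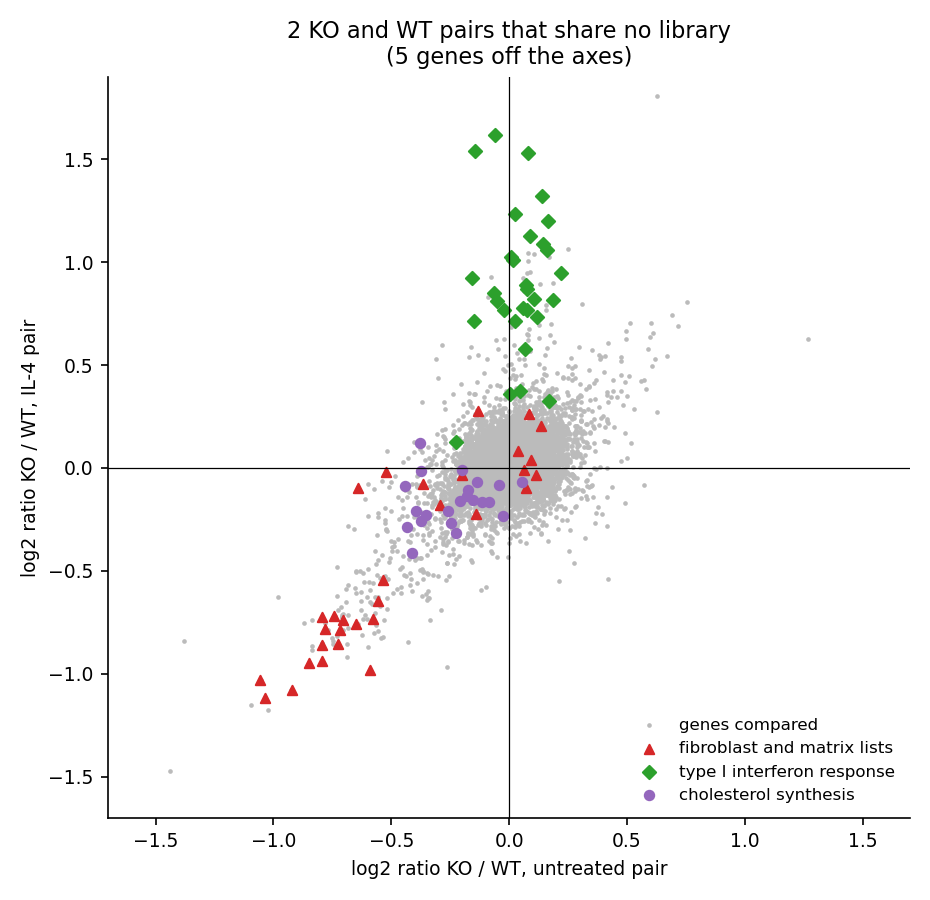
Log2 ratio of KO to WT in the untreated pair (x axis) and the IL-4 pair (y axis) of bone marrow-derived macrophages, FPKM + 1, for the genes compared, with 5 genes off the axes. Fibroblast and matrix genes (red triangles) are low on both axes, interferon genes (green diamonds) are high on the y axis only, and cholesterol synthesis genes (purple circles) lie slightly below 0 on both.

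Across the 8164 genes, the ratios of the 2 pairs had a Pearson's r of 0.563 and a Spearman's rho of 0.338. Without Slc6a8 and the Tmem254 copies Pearson's r was 0.474. Genes are not independent replicates, and the libraries of a genotype may share animals, so that this describes these libraries. DESeq2, fitted to the same design, called fewer genes, 44 that rose and 111 that fell. It called 6 fibroblast markers, 12 matrix genes, 4 complement genes, 4 genes of the IL-4 list and 2 sterol genes as lower. It called 0 genes of the cell cycle, ATF4, arginine, MHC class I, inflammatory, SLC6, glycolysis and tricarboxylic acid cycle lists, and 0 rises on the IL-4 list. The calls there rest on edgeR and, in part, on limma, which called 0 genes of the SLC6 and tricarboxylic acid cycle lists. DESeq2 also called 0 of the erythroid, osteoclast, B cell, T and NK cell and eosinophil lists.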

How the data were processed

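RNA was sequenced from mouse macrophage cultures, 1 library per group. The files hold, for each gene and library, an expected count and an FPKM value, both deposited by the authors. Per the submitters' processing notes, the tools were Bowtie2 2.2.5 and RSEM with the mm10 build. The sources used here give neither the RSEM version nor the annotation. In the 4 bone marrow-derived libraries 70.1% to 70.8% of the deposited expected counts were whole to within 0.005. The FPKM values as deposited were not rescaled.

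Of 17416 genes in the bone marrow-derived tables, 17374 were named from RefSeq (GRCm38.p6) and 42 kept the deposited symbol. A pseudocount of 1 was added to FPKM before the log2 of KO over WT was taken. Counting intervals are exact (conditional binomial, Clopper-Pearson, 95%) from expected counts. The genotype term was fitted with edgeR 4.0.16 (TMM, filterByExpr, quasi-likelihood test) on expected counts rounded to whole numbers, with treatment as a covariate, and adjusted over all genes tested. The test was checked on simulated data, where it recovered the changed genes but made more false calls than the threshold allows, so that with 1 residual degree of freedom its adjusted p-values may be too small. DESeq2 1.42.0 and limma 3.58.1 (trend on log2 FPKM) were alternatives.

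The genes named are those of the creatine list, the 15 highest and 15 lowest protein-coding genes, the 10 per direction with the largest size in both pairs, the 5 per direction that differ most between the pairs, and up to 4 per list at least 1.5-fold higher or lower. Other members of the 27 pathway and 10 marker lists and of the families were named after their values were seen. The comparison, its members and the lists were chosen with earlier results of these data known. Libraries treated with IFN-gamma were not used here. Some list members are not reported here, though they stay in the counts and medians.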

Additional observations from a re-analysis of the deposited data

Results flagged for a closer look

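Genes were sought whose log2 ratio was at least 1.5-fold in opposite directions in the untreated bone marrow-derived and the untreated peritoneal pair. The 2 flagged, Fabp3 and Il1rn, reached 5 FPKM in both pairs. Ccl8 (−1.378 and 0.705) and Atp6v0c-ps2 (1.270 and −0.956) were opposed by that size as well. Both were under 5 FPKM in the peritoneal libraries. Fabp3, the heart-type fatty acid-binding protein, was higher in KO bone marrow-derived macrophages, at 0.60 (8.31 FPKM in WT, 13.08 in KO), and lower in KO peritoneal macrophages, at −1.18 (8.05 and 2.99). Il1rn was lower in KO bone marrow-derived macrophages, at −0.66 (11.98 and 7.23), and higher in KO peritoneal macrophages, at 0.79 (24.77 and 43.56). With 1 library per group the difference between the cell types was not tested. DESeq2 called neither Fabp3 nor Il1rn in the bone marrow-derived libraries.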

How the results depend on the processing

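The number of genes past a size depended on the pseudocount and the filter on low values. In the untreated pair, 8 genes were at least 2-fold lower, against 3 with a pseudocount of 5 and 15 at a minimum of 1 FPKM or with no filter; the 3 that were 2-fold higher became 10 under either looser filter. The 76 genes 1.5-fold lower became 28, 124 and 132 with the pseudocount of 5, the minimum of 1 FPKM and no filter, and the 15 higher became 4, 39 and 50. In the IL-4 pair, 19 genes 2-fold higher became 9, 29 and 29. There, 8 genes 2-fold lower became 13 with a pseudocount of 0.1 and 3 with one of 5, 73 genes 1.5-fold higher became 46 with a pseudocount of 5 and 126 with no filter, and 92 lower became 37, 162 and 182. The edgeR calls, 195 that rose and 474 that fell, became 527 and 726 with no filter on low counts, 44 and 111 with DESeq2, and 102 and 196 with limma-trend. All DESeq2 calls were among those of edgeR (44 of 44 and 111 of 111), as were 92 and 192 of those by limma. The cause of these differences was not tested.

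No called gene changed direction under the alternatives run. The 246 list medians recomputed stayed within the binomial interval of the median over members, though 5 with a size under 0.1 changed sign, of which the monocyte list moved most, from 0.06 to −0.21 at a minimum of 1 FPKM. The median of the IL-4 list, −0.326, was −0.027 with no filter on low values, and that of the complement list, −0.226, was −0.148 at a minimum of 10 FPKM. DESeq2 lost the calls of Tmem254b, Tmem254c, Ccl8, Mgp, Ccn5, Grap, Cdkn1c, Fabp3, Mgst3, Atp6v0c-ps2, Gm7367, Il1rn, Psat1 and F13a1. No paired analysis was possible because every group holds 1 replicate, so that no replicate number pairs libraries; the treatment term of the fit sets KO beside WT within each treatment. For the same reason no fit left out a replicate, and counting intervals are a lower limit to the error.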

Other observations

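The comparison left out 30 microRNA and small nucleolar RNA genes with at least 5 FPKM, of which 5 were at least 2-fold higher in the untreated KO library and 1 was at least 2-fold lower. Among the 8295 genes under 5 FPKM in both untreated libraries, 7 were higher and 7 lower by at least 2-fold. A few pseudogenes had levels that differed widely between libraries. Rpl14-ps1 had 43.65 FPKM in untreated WT and 38 in untreated KO, was listed at 0 in WT with IL-4 and had 48.06 in KO with IL-4. Gm7367 had 11.73 FPKM in WT and 18.66 in KO untreated, and 3.54 and 14.87 with IL-4, and it rose by edgeR but was not called by DESeq2.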
